A study of Mus musculus with 6 samples.

Results

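The enzymes that turn farnesyl diphosphate into squalene and then into cholesterol were examined in myoblasts of mdx mice. The 9 genes were taken by symbol from the count table, which lists 47069 genes: Fdft1, Sqle, Lss, Cyp51, Msmo1, Nsdhl, Hsd17b7, Sc5d and Dhcr7. They were chosen for their place in the pathway, with earlier results of these data known. All 9 were measured and passed the filter on low counts. The mdx mouse lacks dystrophin and is a model of Duchenne muscular dystrophy. Muscle stem cells of mdx mice, sorted by surface markers and grown as myoblasts in serum-rich medium with FGF2, received 10 µM PSB-KD107, a synthetic agonist of the lipid receptor Gpr18, or vehicle, which was DMSO diluted in aqueous buffer. The sample records give a treatment of 2 days, whereas the study's methods describe an overnight treatment. There were 3 libraries of polyadenylated RNA per group, from cells of 3 different mice according to the methods, and all 6 carry the mdx mutation, so a response of dystrophin-positive cells was not analysed here. Which mouse gave which library is not stated in the sources used here.

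Cholesterol synthesis begins with acetyl units that pass through mevalonate to farnesyl diphosphate, a branch point shared with the synthesis of ubiquinone, dolichol and prenyl groups. Squalene synthase commits farnesyl diphosphate to sterols, squalene is oxidized and closed into lanosterol, and lanosterol then loses methyl groups and has its double bonds rearranged and reduced. In many cell types these genes are transcribed together under the sterol-sensing factor SREBP-2, which binds sterol regulatory elements, usually beside sites for the CCAAT-binding factor NF-Y.

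Because these transcripts moved together between libraries, the sequences before their start sites are shown for the genes in which a searched motif lay outside annotated exons. The RefSeq promoter table (build GRCm38.p6, 250 bases before to 50 bases after each start site) had windows for 7 of the 9 genes. CCAAT, searched on both strands, was found in at least 1 window of each of these 7 genes and in 41.1% of all 27025 genes of the table. The E-box CACGTG was found in Hsd17b7, Sc5d and Dhcr7 and in 8.09% of all genes. For Dhcr7, CCAAT lay only in the window of the start site at 143830214, and CACGTG only in that at 143823399. The 250 bases before each of these start sites lay in annotated exons. The window of its first start site, at 143823167, held neither motif. The sterol element core TCACCCCAC was found in none of the 7 genes and in 0.614% of all genes, and with any base in place of its middle C, TCACNCCAC, in none and in 1.44%. No 2 of the CCAAT and CACGTG matches overlapped in these genes. The stretches below are written 5′ to 3′ on the strand of the gene, with CCAAT (or ATTGG, its form on the other strand) and CACGTG in capitals.
Lss, chr10:76531418-76531587, plus strand: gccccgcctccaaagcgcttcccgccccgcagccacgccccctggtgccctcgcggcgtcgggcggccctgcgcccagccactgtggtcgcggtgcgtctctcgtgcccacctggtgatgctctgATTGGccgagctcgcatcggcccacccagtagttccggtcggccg
Nsdhl, chrX:72918412-72918520, plus strand: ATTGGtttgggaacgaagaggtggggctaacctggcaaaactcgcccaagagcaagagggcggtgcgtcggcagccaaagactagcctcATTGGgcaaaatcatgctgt
Hsd17b7, chr1:169969242-169969408, minus strand: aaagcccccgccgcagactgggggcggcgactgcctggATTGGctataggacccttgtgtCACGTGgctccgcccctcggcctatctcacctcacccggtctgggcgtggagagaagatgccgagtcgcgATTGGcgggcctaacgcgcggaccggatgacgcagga
Sc5d, chr9:42264301-42264470, minus strand: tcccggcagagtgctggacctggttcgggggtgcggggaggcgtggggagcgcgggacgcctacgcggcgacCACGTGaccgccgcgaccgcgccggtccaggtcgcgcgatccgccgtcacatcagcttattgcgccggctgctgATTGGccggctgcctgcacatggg
The Hsd17b7 stretch holds CACGTG between a pair of CCAAT boxes, the Sc5d stretch holds CACGTG farther from the start site than its CCAAT box, the Nsdhl stretch holds a pair of CCAAT boxes and the Lss stretch holds 1. Matches are descriptions of these letters, and binding was not measured.

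The libraries held between 30917613 and 48756794 counts, at which 3 counts correspond to 0.0596 to 0.0962 CPM (counts scaled to a common library size with TMM factors), a limit set by counting error alone. The members stood far above it, with at least 714 counts in every library. Gpr18, the receptor named as the target of PSB-KD107, had 0 counts in all 6 libraries, and its protein was not measured here. The cells carried the transcripts of the myoblast lineage: all 8 myoblast markers passed the filter, with a summed level of 6647 to 7021 CPM with vehicle and 6529 to 7029.7 CPM with PSB-KD107. This sum is carried largely by Des, at 2784 to 3932 CPM. In the list, 3 genes had higher and 5 lower means with PSB-KD107 (median log2 fold change -0.09), and 1 was called lower by DESeq2, against 0.719% of all genes. That gene, Pax7, the transcription factor of satellite cells, was at 68.8, 49.9 and 60.0 CPM in vehicle libraries 1, 2 and 4 and at 34.0, 26.8 and 35.1 CPM in PSB-KD107 libraries 1, 2 and 4 (log2 fold change -0.90, adjusted p = 0.209 in edgeR and 0.0018 in DESeq2), and its part in the results below was not tested. Libraries 1 stood apart in some of these markers: Myf5 was at 3.57, 18.6 and 21.3 CPM in vehicle libraries 1, 2 and 4 and at 4.23, 40.9 and 26.8 CPM in PSB-KD107 libraries 1, 2 and 4. Myod1 was at 515, 956 and 1060.0 CPM with vehicle and 399, 765 and 523 CPM with PSB-KD107, so that in vehicle library 1 it was 0.511 times the mean of the other vehicle libraries, and Cdh15 was 0.499 times. In contrast, Pax7, Des, Itgb1 and Vcam1 were higher in vehicle library 1 than in the other vehicle libraries. Of the 7 leukocyte, 5 endothelial, 6 fibro-adipogenic and 5 adipocyte markers, 2, 1, 4 and 0 passed the filter. Their summed levels were 2.39 to 5.10, 0.310 to 1.40, 1.80 to 5.18 and 0 to 0.0310 CPM with vehicle, and 0.963 to 7.31, 0.385 to 1.13, 2.60 to 11.3 and 0 to 0.0641 CPM with PSB-KD107, and Adgre1, Emcn, Plin1 and Retn were at 0 in all 6 libraries.

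Transcripts of all 9 sterol arm genes had higher mean levels with PSB-KD107 than with vehicle. The fold changes ran from 1.99 for Fdft1 to 3.27 for Nsdhl with a median of 2.73, and in 8 of the 9 genes every PSB-KD107 library lay above every vehicle library, a separation seen in this direction in 9.2% of the 14165 genes tested. No member passed an adjusted p of 0.05 in edgeR's quasi-likelihood test, which called 0.0% of the genes tested. At an unadjusted p under 0.05 in the same test, 9 of 9 were higher, against 6.47% of all genes. DESeq2, run on the same counts, called 7 of the 9 higher at an adjusted p under 0.05, against 2.26% of the genes for which it gave an adjusted p, and the exceptions were Fdft1 and Dhcr7. The median log2 fold change of the members was 1.45, beside 0.0 over all genes tested, of which 49.9% were higher with PSB-KD107. In bulk samples more cells of a type and more RNA per cell cannot be told apart. P-values measure the spread between these libraries, and 3 libraries against 3 cannot give an exact two-sided permutation p below 0.1.

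**Figure D1:**
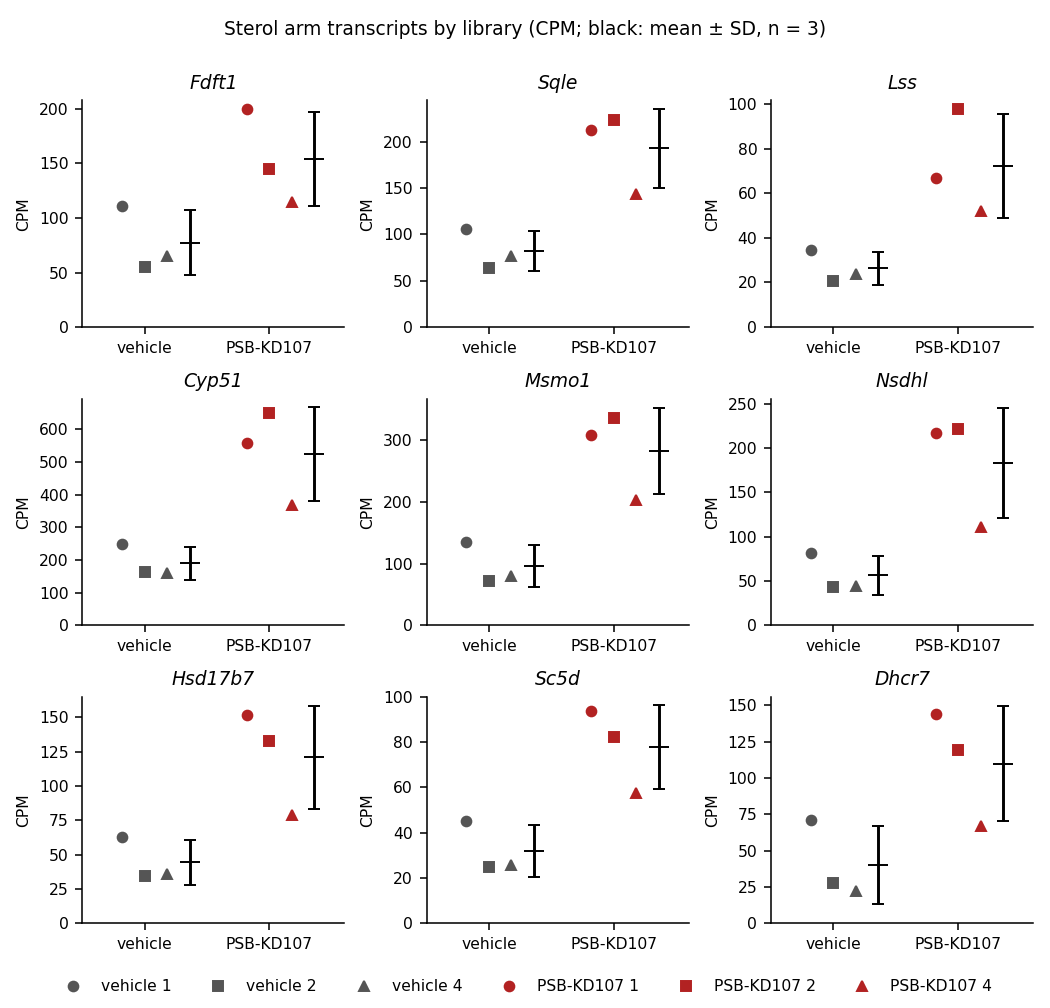
Level of each of the 9 transcripts in CPM (vertical axes, linear from 0) in the 3 vehicle libraries (grey) and the 3 PSB-KD107 libraries (red); the marker shape gives the library number, and the black bar is the mean ± SD of 3 libraries. In 8 panels the red points all lie above the grey points, and in the Dhcr7 panel vehicle library 1 at 71.2 CPM lies above PSB-KD107 library 4 at 66.7 CPM.

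The first enzymes make squalene and fold it into the sterol skeleton. Fdft1 (squalene synthase, chr14:63145150-63179578, minus strand, here and below as GRCm38 coordinates of the whole gene) was at 111, 55.5 and 64.8 CPM in vehicle libraries 1, 2 and 4 and at 200.1, 145 and 115 CPM in PSB-KD107 libraries 1, 2 and 4. The groups nearly touched, since the lowest PSB-KD107 library was 1.04 times the highest vehicle library. Fdft1 had the smallest fold change of the arm, 1.99 (log2 0.99, SE 0.32, 95% confidence interval 0.21 to 1.78), with an adjusted p of 0.428 in edgeR and 0.110 in DESeq2. Its exons share 774 bases with Ctsb, a lysosomal protease gene on the opposite strand, and whether strand was used in counting is not given in the sources used here. Ctsb was at 265, 168 and 183 CPM with vehicle and at 431, 210.1 and 392 CPM with PSB-KD107 (log2 fold change 0.75, adjusted p = 0.541 in edgeR), and its part in the Fdft1 counts was not tested. The processed pseudogene Gm6781, which matches Fdft1 transcripts at 97.4% over 1249 bases, had 18 counts in all libraries together.

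Sqle (squalene epoxidase, which adds the oxygen needed for ring closure and is a rate-limiting step; chr15:59315077-59331192, plus strand) was at 106, 64.0 and 76.9 CPM with vehicle and at 213, 223 and 144 CPM with PSB-KD107. Every PSB-KD107 library exceeded every vehicle library, and Sqle had the smallest spread of the 9 within each group, with a coefficient of variation of 26.1% in vehicle and 22.2% in PSB-KD107. It was 2.35-fold higher (log2 1.23, SE 0.25), with an adjusted p of 0.230 in edgeR and 0.00138 in DESeq2. Lss (lanosterol synthase, the cyclase that forms the ring system; chr10:76531588-76557138, plus strand) was at 34.4, 20.6 and 23.8 CPM with vehicle and at 66.8, 97.7 and 52.2 CPM with PSB-KD107. Its groups were the farthest apart in the arm, the lowest PSB-KD107 library being 1.51 times the highest vehicle library. Lss was 2.75-fold higher (log2 1.46, SE 0.30), with an adjusted p of 0.230 in edgeR and 0.000844 in DESeq2.

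The next 4 enzymes strip methyl groups from lanosterol and its products. Cyp51 (the cytochrome P450 that removes the first methyl group; chr5:4081145-4104746, minus strand) was the most abundant transcript of the arm, at 248, 162 and 159 CPM with vehicle and 557, 649 and 368 CPM with PSB-KD107. All 3 treated libraries exceeded all vehicle libraries, by 1.48 times at the narrowest. It was 2.77-fold higher (log2 1.47, SE 0.28) and had the smallest p-value of the arm, which ranked 112 among the 14165 genes, with an adjusted p of 0.210 in edgeR and 0.000203 in DESeq2. Its exons share 166 bases with Akap9 on the opposite strand, which had a log2 fold change of -0.15 (SE 0.36).

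Msmo1 (the methylsterol oxidase that begins the removal of the remaining pair of methyl groups; chr8:64718139-64733792, minus strand) was at 135, 72.3 and 80.5 CPM with vehicle and at 309, 337 and 203 CPM with PSB-KD107. The lowest treated library was 1.5 times the highest vehicle library. Msmo1 was 2.95-fold higher (log2 1.56, SE 0.31), with an adjusted p of 0.228 in edgeR and 0.000358 in DESeq2. Nsdhl (the dehydrogenase that takes off the oxidized carbon; chrX:72918557-72958514, plus strand) was at 81.2, 43.4 and 43.7 CPM with vehicle and at 217, 221 and 111 CPM with PSB-KD107. PSB-KD107 libraries 1 and 2 were nearly equal, library 4 was lower, and the groups did not overlap. Nsdhl had the largest fold change of the arm, 3.27 (log2 1.71, SE 0.37, 95% confidence interval 0.81 to 2.61), with an adjusted p of 0.251 in edgeR and 0.000919 in DESeq2. Hsd17b7 (the keto-reductase that ends each round of demethylation; chr1:169949535-169969241, minus strand) was at 63.2, 34.2 and 35.8 CPM with vehicle and at 152, 133 and 79.2 CPM with PSB-KD107. The groups did not overlap, with a factor of 1.25 between the nearest libraries. It was 2.73-fold higher (log2 1.45, SE 0.34), with an adjusted p of 0.278 in edgeR and 0.00417 in DESeq2.

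The last members introduce and remove double bonds of the ring. Sc5d (lathosterol oxidase, a desaturase; chr9:42251595-42264256, minus strand) was at 45.1, 24.9 and 25.7 CPM with vehicle and at 93.6, 82.3 and 57.7 CPM with PSB-KD107. The groups were apart by 1.28 times at the nearest libraries. Sc5d was 2.44-fold higher (log2 1.29, SE 0.30), with an adjusted p of 0.276 in edgeR and 0.0057 in DESeq2. Dhcr7 (the reductase that makes cholesterol from its dehydro precursor; chr7:143823145-143848410, plus strand) was at 71.2, 27.9 and 22.1 CPM with vehicle and at 144, 119 and 66.7 CPM with PSB-KD107. It was the one member whose groups overlapped, since vehicle library 1 exceeded PSB-KD107 library 4. Dhcr7 was 2.72-fold higher (log2 1.44) but with the largest SE of the arm, 0.51, and a 95% confidence interval of 0.19 to 2.69; its adjusted p was 0.467 in edgeR and 0.0961 in DESeq2. Its exact two-sided permutation p was 0.2, and that of each other member was 0.1, the smallest that 3 libraries against 3 allow.

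The 9 transcripts varied together from library to library within both groups. Vehicle library 1 was the highest vehicle library for all 9, at 1.5 times the mean of the other vehicle libraries for Sqle and 2.84 times for Dhcr7 (median 1.79). Among the myoblast markers, the same library was the lowest vehicle library for Myf5, Myod1, Cdh15 and Itga7. It was the highest for Pax7, Des, Itgb1 and Vcam1, and the part of this in the members' levels was not tested. PSB-KD107 library 4 was the lowest treated library for all 9. Averaged over the members, log2 CPM relative to the gene mean was -0.14, -1.03 and -0.96 in vehicle libraries 1, 2 and 4 and 0.96, 0.95 and 0.22 in PSB-KD107 libraries 1, 2 and 4. The gap between the nearest libraries of the groups was thus smaller than the gap between vehicle library 1 and the other vehicle libraries. Leaving out vehicle library 1 raised the median log2 fold change to 1.70 and the number called by DESeq2 to 9, and leaving out vehicle library 2 or 4 lowered the number called to 4 or 3. Libraries were also set side by side by number, although the numbers are not known to mark a shared mouse. The ratios of PSB-KD107 to vehicle were above 1 for all members, with the largest ratio of each member in libraries 2. These ratios were 2.68, 5.08 and 2.54 for Nsdhl in libraries 1, 2 and 4, and 1.8, 2.62 and 1.78 for Fdft1.

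**Figure D2:**
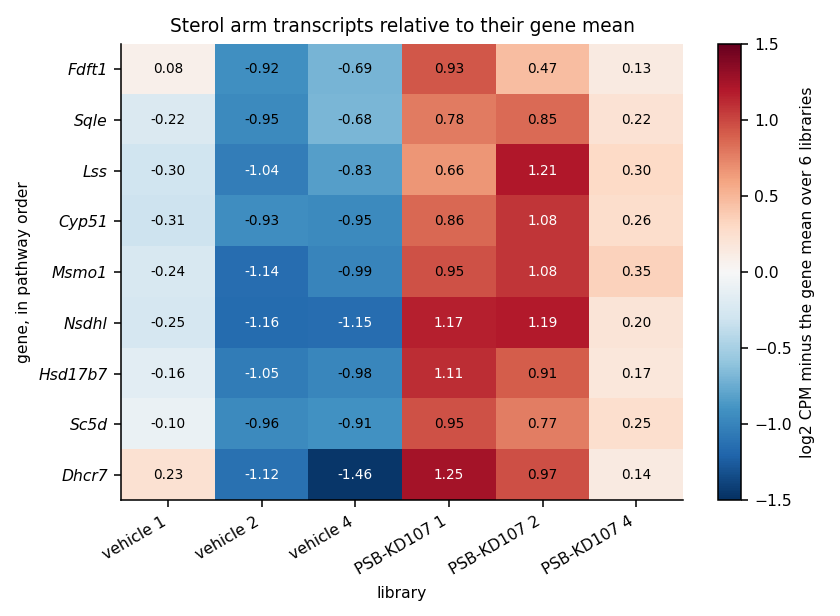
Log2 CPM of each transcript (rows, in pathway order) in each library (columns), relative to the mean of that gene over the 6 libraries; red is above and blue below the mean, and the number in each cell is the value. Vehicle library 1 and PSB-KD107 library 4 lie nearest to 0 (member averages -0.14 and 0.22), and vehicle libraries 2 and 4 lie lowest (-1.03 and -0.96).

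Across the 36 pairs of members, Pearson's r of log2 CPM over the 6 libraries ran from 0.89 (Fdft1 and Lss) to 1.0 (Hsd17b7 and Sc5d) with a median of 0.98. After the mean of each group was subtracted, r ran from 0.65 to 0.99 with a median of 0.94 for the same extreme pairs. These are descriptions over 6 points that share library and depth. The enzymes of cholesterol synthesis, including the mevalonate arm, were left out of a search for genes with a like pattern. Of the 8889 genes searched, each with a mean of at least 10 CPM, the 5 whose log2 CPM followed the average of the members most closely were Bad, a regulator of apoptosis (r = 0.996 over 6 libraries), Myo1e, an unconventional myosin (0.995), Mmab, an enzyme of cobalamin metabolism (0.99), Pcyt2, an enzyme of phosphatidylethanolamine synthesis (0.988), and Atp11a, a phospholipid flippase (0.984). Likeness of pattern did not mean likeness of size: the log2 fold change was 0.14 for Bad, 0.43 for Myo1e, 0.74 for Mmab, 1.20 for Pcyt2 and 0.29 for Atp11a. DESeq2 called Mmab (adjusted p = 0.0322) and Pcyt2 (adjusted p = 0.0269) among these 5, against 2.26% called higher over all genes. The 5 were picked for following an average that differed between the groups, so these calls are not independent of the choice. How often so high an r arises by chance among 8889 genes over 6 points was not tested.

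Levels were compared between genes after division by the length of the merged exons, as CPM per kb. With vehicle the order of mean levels was Cyp51 at 42.9 ± 11.5 CPM per kb (SD, n = 3), Nsdhl at 19.7 ± 7.61, Fdft1 at 18.2 ± 7.05, Msmo1 at 15.6 ± 5.58, Sqle at 14.8 ± 3.87, Hsd17b7 at 8.70 ± 3.19, Dhcr7 at 6.95 ± 4.61, Sc5d at 6.55 ± 2.36 and Lss at 2.44 ± 0.670. The ranges of neighbours in this order overlapped, except for Cyp51 above Nsdhl and Sc5d above Lss. Within single libraries, Fdft1 stood above Msmo1, Sqle above Hsd17b7 and Hsd17b7 above Dhcr7 in all 3 vehicle libraries. The other overlapping neighbours changed order between vehicle libraries. With PSB-KD107 the levels ran from 119 ± 32.4 CPM per kb for Cyp51 to 6.70 ± 2.16 for Lss, and the gaps below Cyp51 and above Lss were again the ones without overlap of ranges. The order was otherwise kept apart from Msmo1, at 46.1 ± 11.5 CPM per kb, which stood above Fdft1, at 36.3 ± 10.2, in all 3 treated libraries and below it in all 3 vehicle libraries. The merged exons of Lss span 10787 bases, the longest of the 9, and which of its transcripts the cells use was not measured.

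**Figure D3:**
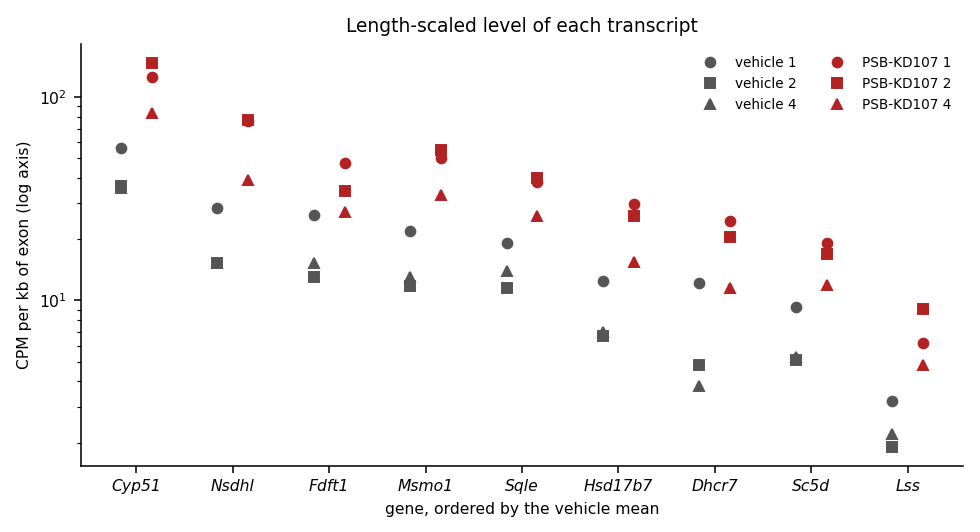
Level of each transcript in CPM per kb of merged exon (vertical log axis), ordered by the vehicle mean, in vehicle (grey) and PSB-KD107 (red) libraries; the marker shape gives the library number. Cyp51 is highest and Lss lowest in every library, and Msmo1 passes Fdft1 in the treated libraries.

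The share of each member in the summed level of the arm was also compared between the groups. Fdft1 made up 13.9%, 12.3% and 13.7% of the summed length-scaled level of the 9 transcripts in vehicle libraries and 11.3%, 8.06% and 10.8% in PSB-KD107 libraries. Nsdhl made up 15.0%, 14.2% and 13.7% with vehicle and 18.2%, 18.2% and 15.4% with PSB-KD107, and Msmo1 11.6%, 11.0% and 11.7% against 12.0%, 12.9% and 13.1%. Sc5d made up 4.90%, 4.78% and 4.71% with vehicle and 4.60%, 3.97% and 4.70% with PSB-KD107, so that its nearest libraries were almost tied. For these 4 the groups did not overlap, and each had an exact two-sided permutation p of 0.1, the smallest possible. Shares of the other 5 overlapped between groups, Cyp51 standing at 32.1% ± 2.29 and 32.6% ± 2.20 (SD, n = 3). Relative to Fdft1 in the same library, Nsdhl was higher by 0.68, Msmo1 by 0.56, Hsd17b7 by 0.43 and Sc5d by 0.29 on the log2 scale, without overlap of the groups. Dhcr7 was higher by 0.54, Cyp51 by 0.44, Lss by 0.42 and Sqle by 0.21, and for these the groups overlapped. Fdft1, the reference, had the smallest fold change of the arm, and the part of Ctsb in its counts was not tested. Such ratios describe unequal mean differences between members, not which of them stayed level. The shares of a library add up to the whole and all ratios use Fdft1, so these values are not independent. How often such shares or ratios separate the groups by chance was not tested. The p-values of the 9 shares and 8 ratios were not adjusted for their number, since none can go below 0.1.

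Values were also read for other enzymes after squalene. Tm7sf2 and Lbr both encode sterol reductases for the same ring position, and the difference between their fold changes was not tested. Tm7sf2 was at 17.9, 7.82 and 5.12 CPM with vehicle and at 48.4, 35.8 and 22.0 CPM with PSB-KD107 (log2 fold change 1.78, SE 0.53, adjusted p = 0.388 in edgeR and 0.0208 in DESeq2). Lbr, which is also a protein of the nuclear envelope, was at 33.2, 38.0 and 47.9 CPM with vehicle and at 36.3, 47.4 and 42.3 CPM with PSB-KD107, and its log2 fold change of 0.08 (SE 0.17) had a 95% confidence interval of -0.34 to 0.51. The groups overlapped for Lbr, and the upper bound of its interval lies below the log2 fold change of each member. The intervals of Fdft1 (0.21 to 1.78) and Dhcr7 (0.19 to 2.69) overlap that of Lbr, and the differences between Lbr and the members were not tested. Ebp, the sterol isomerase, was at 26.4, 15.4 and 12.2 CPM with vehicle and at 45.8, 28.5 and 36.9 CPM with PSB-KD107 (log2 fold change 1.04, SE 0.33, adjusted p = 0.415 in edgeR and 0.0914 in DESeq2).

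Upstream of squalene, all 8 genes of the mevalonate arm had higher means with PSB-KD107, 8 at an unadjusted p under 0.05 in edgeR (6.47% of all genes), 0 at an adjusted p under 0.05 in edgeR (0.0%) and 6 in DESeq2 (2.26% called higher), with a median log2 fold change of 1.43 beside 1.45 in the sterol arm. Idi1, the isomerase of the isoprene units, was among those with the smallest p (log2 1.85, SE 0.36, adjusted p = 0.228 in edgeR and 0.000157 in DESeq2). Of the 14 genes listed for the branches from farnesyl diphosphate to other products, 9 had higher and 5 lower means. Not all of the 14 use farnesyl diphosphate itself, and their median log2 fold change was 0.03. DESeq2 called 0, against 2.26% called higher over all genes, and 1 was higher at an unadjusted p under 0.05 in edgeR, near the 6.47% of all genes. That gene was Nus1, a subunit of the enzyme for dolichol (log2 0.35, SE 0.09, adjusted p = 0.336 in edgeR), and the next was Pdss2, of ubiquinone synthesis (log2 0.20, SE 0.15).

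Genes that control the pathway or share its cofactors were read as counts. Of 12 genes of SREBP control and cholesterol uptake, 7 had higher and 5 lower means, and the median log2 fold change was 0.18. At an unadjusted p under 0.05 in edgeR, 5 were higher and 1 was lower, against 6.47% and 2.93% of all genes, 0 passed an adjusted p of 0.05 in edgeR, and DESeq2 called 2 higher, against 2.26%. The smallest p was that of Npc2, the lysosomal cholesterol carrier, at 120.2, 89.3 and 85.5 CPM with vehicle and 268, 211 and 274 CPM with PSB-KD107 (log2 1.35, SE 0.18, adjusted p = 0.165 in edgeR and 3.98e-07 in DESeq2). As in the sterol arm, vehicle library 1 was its highest vehicle library. Unlike in the sterol arm, PSB-KD107 library 4 was its highest treated library.

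Of 7 tested genes of sterol efflux and its LXR receptors, from a list of 8, 5 had higher and 2 lower means, with a median log2 fold change of 0.18. In edgeR 2 were lower at an unadjusted p under 0.05, 0 passed an adjusted p of 0.05, and DESeq2 called 0, against 2.93%, 0.0% and 0.719% of all genes for calls in the lower direction. They were Abca1, the cholesterol exporter, at 2.58, 1.35 and 1.68 CPM with vehicle and 0.616, 0.192 and 0.990 CPM with PSB-KD107 (log2 -1.63, SE 0.60, adjusted p = 0.484 in edgeR), and Mylip, a ubiquitin ligase (log2 -0.50, SE 0.20, adjusted p = 0.528 in edgeR). For both, each PSB-KD107 library lay below each vehicle library, as in 6.59% of the genes tested. Abca1 rested on few counts. These were 101, 47 and 54 in vehicle libraries 1, 2 and 4 and 31, 6 and 36 in PSB-KD107 libraries 1, 2 and 4. The 7 electron-transfer and heme partners of these enzymes had 6 higher and 1 lower means with a median of 0.20. Among them 2 were higher at an unadjusted p under 0.05 in edgeR, against 6.47% of all genes. In edgeR 0 passed an adjusted p of 0.05, and DESeq2 called 0, against 2.26% called higher over all genes. The 2 at an unadjusted p under 0.05 were Pgrmc2 (log2 0.51, SE 0.15), a heme-binding membrane protein, and Cyb5b (log2 0.47, SE 0.15), a cytochrome b5. The 5 genes for degradation of the enzymes had 3 higher and 2 lower means, a median of 0.03 and 0 with an unadjusted p under 0.05 in edgeR or a call in DESeq2, and the smallest p-values were those of Rnf139 (log2 -0.22, SE 0.15) and March6 (log2 0.13, SE 0.10), both membrane ubiquitin ligases.

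**Figure D4:**
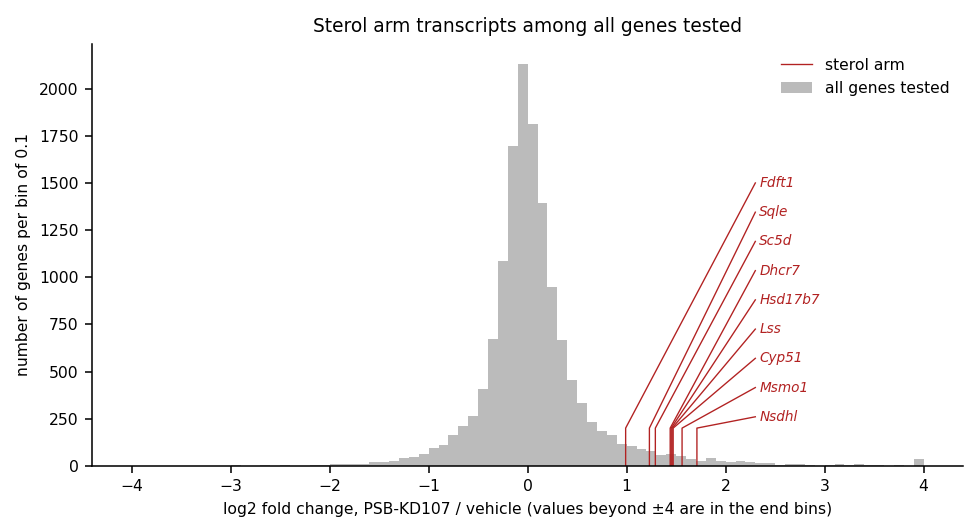
Number of genes per bin of 0.1 in log2 fold change (grey bars, all 14165 genes tested; values beyond the axis are in the end bins), with the 9 sterol arm transcripts marked in red. The members lie between 0.99 and 1.71, on the right flank of a distribution whose median is 0.0.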

How the data were processed

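RNA of mdx myoblasts treated with vehicle or PSB-KD107 was sequenced in paired-end mode with reads of 100 bases. Reads were mapped with STAR by the authors, and per the labels the genome build was mm10. The authors deposited raw counts per gene, not normalized, and the counting program, its annotation and its use of strand are not given in the sources used here. Gene positions and merged exon lengths were taken from GENCODE M21 (GRCm38).

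The libraries are numbered 1, 2 and 4 in the table but 1, 2 and 3 in the sample records, so libraries 4 were assigned to a group only. Counts were filtered with filterByExpr (14165 genes kept), scaled with TMM factors and tested with edgeR 4.0.16 (quasi-likelihood, R 4.3.3) over all genes kept, with Benjamini-Hochberg adjustment and a threshold of 0.05. Alternatives used DESeq2 1.42.0, limma 3.58.1 (voom), RLE factors, other filters, a replicate block and leaving out each library. In DESeq2, all genes with a count entered the fit. Tables were made in Python 3.11.15 with pandas 2.3.3. Errors between libraries are SDs, and log2 CPM used an offset of 0.1. Exact permutation tests were two-sided. Scripts were tested on simulated data.

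The genes named were all members and the other enzymes after squalene, the 2 genes with the smallest edgeR p of each further pathway list, and the 5 genes outside the cholesterol synthesis lists whose pattern was most like the members' by Pearson's r. Some genes covered by this rule are not reported here. Pax7, Des, Myf5, Myod1, Cdh15, Itga7, Itgb1, Vcam1, Ctsb, Akap9, Gm6781 and Gpr18 were named after their values were seen. The members and lists were chosen with earlier results of these data known.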

Additional observations from a re-analysis of the deposited data

How the results depend on the processing

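Every member kept a higher mean with PSB-KD107 under all alternatives run (198 values, of which 0 reversed). The median log2 fold change of the 9 was between 1.24 and 1.70 when each library was left out in edgeR or DESeq2. The count of members at an adjusted p under 0.05 was 0 in edgeR and 7 in DESeq2, and 7 in DESeq2 on the genes kept by filterByExpr, an alternative chosen after seeing the data; leaving out each library in turn, it was 0 in edgeR and from 3 to 9 in DESeq2 (9, 4 and 3 without vehicle libraries 1, 2 and 4, and 5, 7 and 9 without PSB-KD107 libraries 1, 2 and 4). Over all genes the count called was 0 in edgeR, 8 without the filter on low counts, 410 in DESeq2 and 482 in DESeq2 on the filtered genes; leaving out each library, it was 0 in edgeR, and in DESeq2 it was 602, 177 and 160 without vehicle libraries 1, 2 and 4 and 275, 768 and 674 without PSB-KD107 libraries 1, 2 and 4. Lss, Cyp51 and Msmo1 were called by DESeq2 in 6 of 6 leave-outs, Sqle in 5, Nsdhl in 4, Hsd17b7 and Sc5d in 3, and Fdft1 and Dhcr7 in 2. The cause of the difference between the tools was not tested.

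With the number as a replicate block, 9 members and 2456 genes were called in libraries 1 and 2, 0 and 0 in all 6 libraries in edgeR, and 9 and 638 in all 6 libraries in DESeq2. Libraries 1 and 2 without the block, chosen after seeing the data, gave 0 and 0. Deviations from the group means correlated at 0.63, 0.52 and -0.13 between libraries of the same number 1, 2 and 4 over 14165 genes, while vehicle library 4 correlated at 0.64 with PSB-KD107 library 2, so the numbers were not taken as pairs. How depth limits the members' values was not tested.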
